A study of Mus musculus with 9 samples.

Results

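Expression of 41 genes for lysosomal enzymes, lysosomal membrane proteins and the vacuolar proton pump was described in microglia of mice given lipopolysaccharide (LPS, a bacterial cell wall component) or saline. The genes were taken by symbol from a list that leaves out the cathepsins. All 41 were in the deposited table of 23134 genes, and all 41 were among the 16575 genes with a mean normalized count of at least 10 over the 9 libraries. The list holds 12 hydrolases of glycans and sulfate esters, 8 genes for lipid and protein handling, 7 membrane proteins, the transcription factor gene Tfeb and 13 subunits or accessory proteins of the pump. The rule itself uses no difference between groups, but the members were chosen with earlier results of these data known.

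The 9 libraries fall into 3 groups of 3. In the first group the mice carried an astrocyte conditional knockout (cKO) of Chd8, which encodes a chromatin remodeller, and were given LPS. In the second, control mice were given LPS, and in the third, control mice were given saline. LPS was injected into the peritoneum at 5 mg/kg, at an age of 2 to 3 months, and tissue was taken 72 hours later from mice of the same age range. Cortex and hippocampus were dissociated after perfusion, astrocytes were removed on magnetic beads against ACSA-2, and cells carrying CD11b were collected from the remainder. The series' design text speaks instead of bulk cortical tissue; the protocol and the cell type label, microglia, were followed, and the doubt is not settled by the labels. Every title names cortex without hippocampus and carries the word saline. Titles of control LPS also name LPS, while those of cKO LPS name only saline. For cKO LPS, the genotype and treatment labels, like the comparison names in the authors' deposited table, say LPS, which was followed. The labels name neither the Cre driver nor the strain, and a cKO group without LPS was not analysed here. Nothing in the labels says that the libraries of a group came from separate mice, so a p-value reflects only how these samples spread, and that spread may be technical.

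Lysosomes are acidic compartments in which hydrolases break down the proteins, lipids and glycans that a cell takes up or recycles. The vacuolar proton pump acidifies them: its cytosolic V1 sector hydrolyses ATP and turns a ring of the membrane-embedded V0 sector, which carries protons inward. The transcription factor TFEB binds an E-box element upstream of many lysosomal genes, and microglia, the phagocytes of the brain, depend on the lysosome to clear debris.

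The libraries held from 10845937 recovered reads in control saline library 3 to 86571481 in cKO LPS library 3. Microglial markers were high in every group: the 10 markers summed to 2.56% to 3.17% of normalized counts in cKO LPS, 2.49% to 2.97% in control LPS and 3.20% to 4.45% in control saline, and 0 of 10 passed the limma test in any comparison. In control LPS against control saline, 6 of 10 were lower at unadjusted p under 0.05 with limma (5.81% of all genes). All control LPS libraries lay below all saline libraries for 7 of 10 (8.23% of all genes). In the authors' deposited table of that comparison 5 of 10 were lower (2.35% of its genes). Their median log2 fold change was -0.49 in cKO LPS and -0.54 in control LPS over control saline. CD11b is also carried by neutrophils and monocytes. The 10 neutrophil markers summed to normalized counts of 10932 to 20436 in cKO LPS, 11273 to 93208 in control LPS and 764 to 1630 in control saline, and 8 of 10 in cKO LPS and 10 of 10 in control LPS were higher than in control saline. The 9 monocyte markers summed to 13869 to 28111 in cKO LPS, 16322 to 40209 in control LPS and 6248 to 9074 in control saline, and 5 of 9 were higher in either LPS group than in control saline. The 5 T and NK cell markers that could be tested belong to a list whose sum was 696 to 987 in cKO LPS, 460 to 3548 in control LPS and 45.7 to 218 in control saline, and 3 of 5 were higher in either LPS group than in control saline. Over all tested genes, 5.41% in cKO LPS and 4.68% in control LPS were higher than in control saline at adjusted p under 0.05 with limma. None of the neutrophil, monocyte, T or NK cell markers had adjusted p under 0.05 between cKO LPS and control LPS. Library 1 of control LPS stood apart by its 8 astrocyte markers, which summed to 98789 in that library and to 5150 to 9363 in the other libraries. Oligodendrocyte markers took 0.0550% to 0.113% of normalized counts in cKO LPS, 0.0680% to 0.157% in control LPS and 0.102% to 0.189% in control saline. Endothelial markers took 0.0163% to 0.0708%, 0.0233% to 0.0567% and 0.0410% to 0.0905% in the same order. For these and for border-associated macrophage markers, the saline range overlapped both LPS ranges. Chd8 itself had 4252 to 6596 normalized counts over the 9 libraries, which is no check of the knockout, since the microglia were not the cells targeted.

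The start of transcription of several members lies close to copies of the E-box that TFEB is known to bind, which are shown here because they group members by something other than expression. RefSeq promoter windows of GRCm38.p6, from 250 bases before to 50 bases after a start, were matched for 36 of the 41 genes. The letters TCACGTG, which contain the shorter E-box CACGTG, were searched on both strands. They were found in the windows of 9 of the 36 genes (25.0%), against 4.29% of all 27025 genes with a window. The share was similar, 12 of 44 (27.3%), among the further lysosomal genes described below that had a window. The shorter CACGTG was in the windows of the same share of the 36 genes, against 8.09% of all genes. The 9 genes are Arsa, Atp6v0b, Atp6v0d1, Atp6v1a, Glb1, Lamp1, Mcoln1, Naglu and Sgsh. Stretches around the matches of 8 of them are printed below 5′ to 3′ on the strand of the gene, with the matched letters in capitals, and each printed stretch lies upstream of the start on which its window was built. For Atp6v1a that start is an internal one, within the annotated gene span chr16:44085402-44139702, and the stretch of Atp6v0b overlaps its annotated gene span at one end. Lamp1 held 4 copies, more than any other member, and Mcoln1 and Atp6v0b each held 2.
Glb1, chr9:114400989-114401075, plus strand: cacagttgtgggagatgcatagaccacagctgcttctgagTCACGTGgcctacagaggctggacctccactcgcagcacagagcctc
Naglu, chr11:101069980-101070066, plus strand: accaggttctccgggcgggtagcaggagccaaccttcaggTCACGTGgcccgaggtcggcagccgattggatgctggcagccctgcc
Arsa, chr15:89477425-89477481, minus strand: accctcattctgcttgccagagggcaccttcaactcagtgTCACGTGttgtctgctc
Sgsh, chr11:119355511-119355579, minus strand: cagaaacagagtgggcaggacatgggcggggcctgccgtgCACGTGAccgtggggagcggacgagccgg
Lamp1, chr8:13159059-13159160, plus strand: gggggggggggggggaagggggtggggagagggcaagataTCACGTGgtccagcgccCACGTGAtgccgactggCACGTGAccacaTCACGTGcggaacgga
Mcoln1, chr8:3500407-3500518, plus strand: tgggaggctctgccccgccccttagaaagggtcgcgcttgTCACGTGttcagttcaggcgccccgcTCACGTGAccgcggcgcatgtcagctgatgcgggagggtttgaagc
Atp6v0b, chr4:117887330-117887406, minus strand: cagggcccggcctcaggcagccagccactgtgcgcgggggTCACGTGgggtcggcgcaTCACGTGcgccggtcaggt
Atp6v1a, chr16:44139344-44139431, minus strand: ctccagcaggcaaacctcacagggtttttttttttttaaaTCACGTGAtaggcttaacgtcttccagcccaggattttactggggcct

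In saline, the levels of the 41 genes per kilobase of exon spread over more than 2 orders of magnitude. Psap, the precursor of the saposins that help hydrolases reach sphingolipids, was highest with 44595 to 51367 normalized counts per kilobase. Laptm5, a membrane protein of lysosomes in blood and immune cells, came next with 28765 to 33302, and its range did not overlap that of Psap. Grn, which encodes progranulin, held 19821 to 27947 and Cd68, a glycoprotein of macrophage lysosomes, 15998 to 25129 normalized counts per kilobase, and these ranges overlapped each other. Galc, which encodes the galactosylceramidase that degrades a myelin lipid, was lowest with 294 to 319, just under Sgsh, a heparan sulfate sulfamidase gene, with 312 to 339. Of the pump genes, Atp6v0b had the highest level with 7865 to 8169 and Atp6v1a the lowest mean, with 587 to 721 normalized counts per kilobase. The ranges of Atp6v1d, with 560 to 805, and Atp6v1h, with 623 to 808, overlapped that of Atp6v1a.

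Microglia of control mice given LPS had higher levels of a part of these genes than those of control mice given saline. With limma over all tested genes, 8 of the 41 rose at adjusted p under 0.05 (19.5%, against 4.68% of all genes tested) and 0 of 41 fell (0.923% of all genes). At unadjusted p under 0.05 the number lower was also 0 of 41 (5.81% of all genes). The 8 were Glb1, Man2b1, Galc, Neu1, Grn, Cd63, Atp6v0c and Atp6v1b2, and their log2 fold changes ran from 0.69 to 1.61. Over the 41 genes the median log2 fold change was 0.34 and 37 were above 0, whereas the median over all tested genes was 0.02. In 19 of the 41 all control LPS libraries lay above all control saline libraries, against 13.4% of all genes, and in 0 all lay below, against 8.23%. In the authors' deposited table of this comparison, 14 of the 41 were higher at adjusted p under 0.05, against 8.31% of its genes, and 0 were lower, against 2.35%. The monocyte, neutrophil, T and NK cell markers given above were higher in the same comparison, and their part in these differences was not tested. These are bulk libraries, in which more cells of a type and more RNA per cell cannot be told apart.

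The hydrolases held the largest group of called genes, with 4 of 12 higher, 0 of 12 lower and a median log2 fold change of 0.56. Glb1, the gene of lysosomal beta-galactosidase (chr9:114401078-114474379), had 6158, 5654 and 4503 normalized counts in cKO LPS, 4844, 5710 and 5967 in control LPS and 2453, 2321 and 2965 in control saline. Every library of either LPS group lay above every saline library, and the LPS groups overlapped. Glb1 rose 2.14-fold in control LPS over control saline (log2 fold change 1.10 ± 0.16 SE, adjusted p = 0.00565 with limma), and it is one of the genes with a printed E-box. Its span contains Tmppe on the same strand, which had 699 to 1229 normalized counts.

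Man2b1, which encodes the lysosomal alpha-mannosidase (chr8:85082730-85098739), had 72425, 91424 and 70047 normalized counts in cKO LPS, 72774, 110879 and 74824 in control LPS and 29303, 39740 and 36384 in control saline. Again no LPS library lay within the saline range, and library 2 of control LPS was the highest of all. The rise was 2.42-fold (log2 1.28 ± 0.23 SE, adjusted p = 0.0159). Galc (chr12:98202287-98259459) had 2376, 2791 and 3255 in cKO LPS, 1792, 3200 and 2625 in control LPS and 1127, 1224 and 1184 in control saline. The saline libraries of Galc lay close together, and all 6 LPS libraries were above them, for a rise of 2.10-fold (log2 1.07 ± 0.21 SE, adjusted p = 0.0190). Neu1, the gene of lysosomal sialidase (chr17:34931253-34937297), had 4171, 4452 and 5265 in cKO LPS, 4029, 5714 and 4961 in control LPS and 2894, 3168 and 2968 in control saline. Its LPS libraries also lay above its saline libraries, but the rise was smaller at 1.61-fold (log2 0.69 ± 0.15 SE, adjusted p = 0.0298).

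Among the 8 hydrolases that did not pass, Gusb, which encodes beta-glucuronidase, came closest with a log2 fold change of 0.79 (adjusted p = 0.0531). It was followed by Naglu, an enzyme of heparan sulfate breakdown, with 0.67 (adjusted p = 0.106). Idua, which encodes alpha-iduronidase, had a log2 fold change of 0.45 and Hexa, which encodes the alpha chain of beta-hexosaminidase, 0.33. In both, all control LPS libraries lay above all control saline libraries. Of the sulfatase genes, Sgsh had 0.21, Arsa, which encodes the sulfatase of myelin sulfatide, 0.20, and Ids, the iduronate sulfatase gene, -0.07. Arsb, which encodes the sulfatase of dermatan and chondroitin sulfate, had the lowest log2 fold change of the 41 at -1.23 (adjusted p = 0.293).

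Of the 8 genes for lipid and protein handling, 1 rose and 0 fell. Grn (chr11:102430507-102436809) had 98464, 131865 and 111843 normalized counts in cKO LPS, 108818, 122368 and 104100 in control LPS and 46382, 56540 and 65397 in control saline. The lowest LPS library was far above the highest saline library, and the rise was 2.01-fold (log2 1.00 ± 0.22 SE, adjusted p = 0.0337). All 8 genes had a log2 fold change above 0. Npc2, which hands cholesterol to the membrane protein encoded by Npc1, had 0.77 (adjusted p = 0.0522), Psap 0.51 (0.333), the palmitoyl thioesterase gene Ppt1 0.47 (0.174) and the acid ceramidase gene Asah1 0.31 (0.614). The peptidase gene Tpp1 had 0.27 (0.395) and the acid lipase gene Lipa 0.13 (0.764). Npc1 had 8116, 11160 and 9752 normalized counts in cKO LPS, 8907, 8710 and 9554 in control LPS and 6639, 8651 and 8853 in control saline. The groups overlapped for Npc1 (log2 0.18 ± 0.16 SE, adjusted p = 0.607).

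Of the 7 membrane proteins, 1 rose and 0 fell. Cd63, a tetraspanin gene (chr10:128896231-128912822), had 15233, 15838 and 13848 normalized counts in cKO LPS, 10806, 25503 and 18991 in control LPS and 5996, 4358 and 7024 in control saline. The control LPS libraries were widely spread, with library 1 lowest and library 2 highest, yet all lay above the saline libraries. At 3.05-fold this was the largest rise of the 41 genes (log2 1.61 ± 0.29 SE, adjusted p = 0.0154). The summed neutrophil markers were also lowest in library 1, with 11273, and highest in library 2, with 93208, and their part in the difference of Cd63 was not tested.

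Lamp1, a major glycoprotein of the lysosomal membrane (chr8:13159161-13175338), had 62414, 66564 and 65546 normalized counts in cKO LPS, 46407, 61567 and 64713 in control LPS and 31082, 32950 and 38973 in control saline. All LPS libraries lay above all saline libraries, but the difference of control LPS from control saline did not pass (log2 0.74 ± 0.19 SE, adjusted p = 0.0570). Lamp2, its relative with a role in autophagy, had 17056, 17339 and 18039 in cKO LPS, 11850, 16876 and 20165 in control LPS and 10670, 10416 and 15671 in control saline. Control LPS library 1 of Lamp2 lay within the saline range (log2 0.40 ± 0.22 SE, adjusted p = 0.373). Cd68 had 31950, 33644 and 29060 in cKO LPS, 25141, 27321 and 39329 in control LPS and 20109, 21395 and 31587 in control saline. Its groups overlapped (log2 0.33 ± 0.23 SE, adjusted p = 0.496), and saline library 3 was higher than 3 of the 6 LPS libraries.

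Mcoln1, the gene of a lysosomal calcium channel, had 2370, 2928 and 2588 normalized counts in cKO LPS, 2429, 2516 and 2742 in control LPS and 2106, 2087 and 1669 in control saline. The LPS libraries lay above the saline libraries without passing the test (log2 0.40 ± 0.13 SE, adjusted p = 0.136). Scarb2, which encodes the carrier of glucocerebrosidase to the lysosome, had a log2 fold change of 0.46 (adjusted p = 0.172), and Laptm5 had -0.28 (adjusted p = 0.580). Tfeb (chr17:47737037-47792416) had 2206, 2508 and 1714 in cKO LPS, 2236, 2141 and 2280 in control LPS and 2418, 2512 and 2066 in control saline. All 3 groups of Tfeb overlapped (log2 -0.07 ± 0.15 SE, adjusted p = 0.863); the activity of TFEB is known to be set largely by its phosphorylation and location, which RNA does not show.

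**Figure D1:**
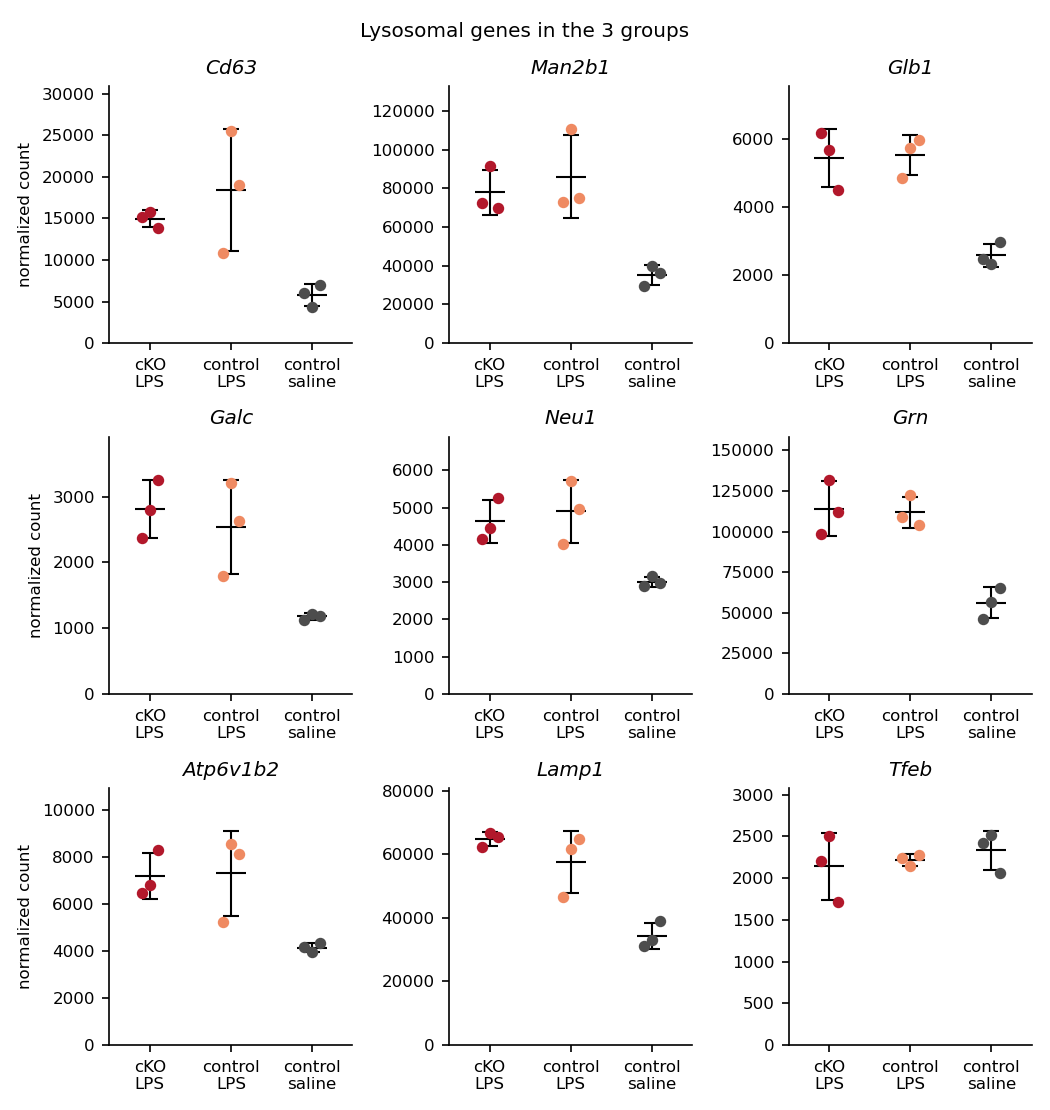
Normalized counts (y axis) of 9 lysosomal genes by group (x axis). Points are libraries, the long bar is the mean and the whiskers are ± SD (n = 3). The saline libraries lie below both LPS groups for all of them except Tfeb, which has 1714 to 2512 normalized counts across the 3 groups.

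Of the 13 pump genes, 2 rose and 0 fell in control LPS, with a median log2 fold change of 0.32 and all 13 above 0. Among the other 28 genes 6 rose, with a median of 0.43. In the V0 sector, 1 of 4 was called: Atp6v0c, which encodes the proton-carrying subunit of the ring (chr17:24163865-24169678). It had 2262, 2632 and 2892 normalized counts in cKO LPS, 5032, 6870 and 2951 in control LPS and 1832, 2162 and 1723 in control saline. Its rise in control LPS was 2.46-fold (log2 1.30 ± 0.27 SE, adjusted p = 0.0246), and library 3 of control LPS lay close to the cKO libraries. Atp6v0a1, the gene of a V0 subunit at the proton path, had 7110, 9218 and 7461 in cKO LPS, 7423, 10319 and 7230 in control LPS and 8036, 8487 and 5699 in control saline. These groups overlapped (log2 0.17 ± 0.20 SE, adjusted p = 0.713). The other ring subunit gene Atp6v0b had 0.32 (adjusted p = 0.123) and Atp6v0d1, at the joint with the stalk, 0.29 (adjusted p = 0.389).

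In the V1 sector, 1 of 7 was called. Atp6v1b2, a nucleotide-binding subunit gene (chr8:69088736-69113718), had 6464, 6816 and 8279 normalized counts in cKO LPS, 5230, 8557 and 8108 in control LPS and 4179, 3937 and 4319 in control saline. All 6 LPS libraries lay above the saline libraries, for a rise of 1.72-fold (log2 0.78 ± 0.19 SE, adjusted p = 0.0453). Atp6v1a, the catalytic subunit gene, had 3786, 3942 and 4794 in cKO LPS, 2967, 4732 and 5419 in control LPS and 2784, 2493 and 3061 in control saline. Control LPS library 1 of Atp6v1a was within the saline range, and the test was not passed (log2 0.61 ± 0.21 SE, adjusted p = 0.153). The other V1 genes, Atp6v1c1, Atp6v1d, Atp6v1e1, Atp6v1f and Atp6v1h, had log2 fold changes of 0.05 to 0.36 with overlapping groups. The accessory genes Atp6ap1 and Atp6ap2, whose products help assemble the pump, had 0.26 and 0.02. Library 1 of control LPS was the lowest of its group for 28 of the 41 genes and 11 of the 13 pump genes. The share over all tested genes is not given here. That library held the high astrocyte markers, and its normalized counts summed to 34129593.5, against 38681231.5 in library 2 and 38805837 in library 3 of control LPS.

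**Figure D2:**
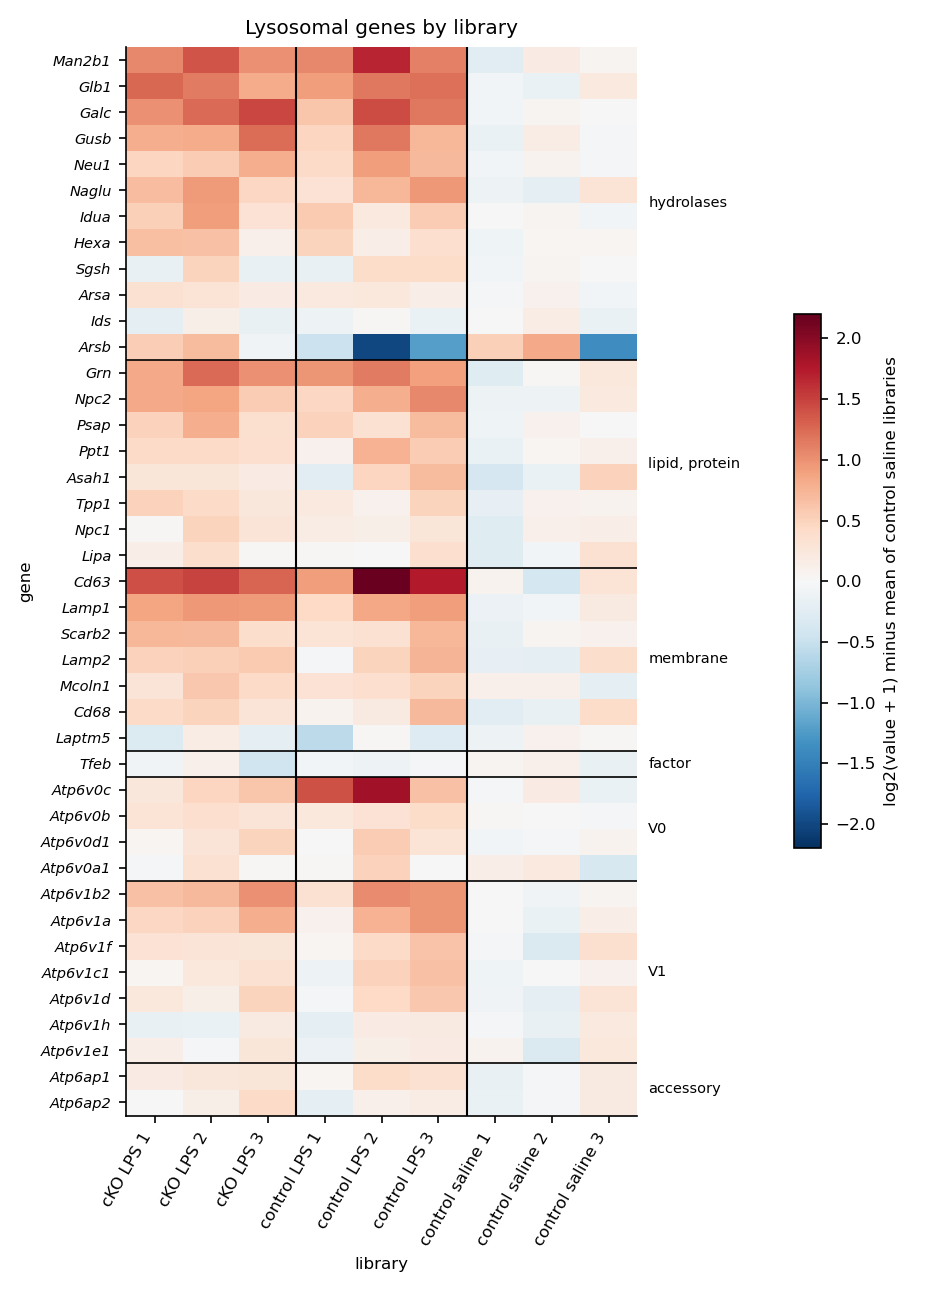
Each row is a gene and each column a library, grouped as cKO LPS, control LPS and control saline. Colour gives log2(value + 1) minus the mean of the 3 control saline libraries of that gene. Red rows run through both LPS groups for Man2b1, Glb1, Galc, Grn and Cd63, while Atp6v0c is darkest in control LPS libraries 1 and 2, with 5032 and 6870 normalized counts, and Arsb is blue in control LPS and in saline library 3.

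The number of genes called in control LPS depended on single libraries. It was 15 without control LPS library 1, 2 without control LPS library 2, 3 without control LPS library 3, 2 without saline library 1, 2 without saline library 2 and 4 without saline library 3. Without any 1 of the cKO LPS libraries, which share the estimate of spread, it was 6, and in a fit of only the 6 libraries compared it was 1. Over all tested genes, 929 were called with all libraries. Without control LPS library 1, 2 or 3 that number was 1826, 387 or 374, and without saline library 1, 2 or 3 it was 499, 418 or 562. Without cKO LPS library 1, 2 or 3 it was 643, 666 or 801, and with only the 6 libraries compared 417. Glb1 was called in all 9 fits that left out 1 library, Man2b1 and Cd63 in 7, Atp6v0c in 5, Galc in 4, Neu1 and Grn in 3 and Atp6v1b2 in 1 (limma, adjusted p up to 0.169 over all alternatives for these genes). Without control LPS library 1, the library with the high astrocyte markers, the log2 fold changes were 1.19 for Glb1, 1.39 for Man2b1, 1.30 for Galc, 0.82 for Neu1, 1.02 for Grn, 1.95 for Cd63, 1.25 for Atp6v0c and 1.01 for Atp6v1b2. Every one of the 8 stayed above 0 in each alternative run.

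The summed share of the 41 genes was higher in both LPS groups than in saline, without overlap of libraries, and no test was made of it. The 41 genes took 2.43%, 2.67% and 2.30% of normalized counts in cKO LPS, 2.29%, 2.34% and 2.36% in control LPS and 1.72%, 1.86% and 1.84% in control saline. No LPS library reached down to the saline range. Such a sum is weighted toward abundant genes. In control LPS and control saline, Psap had means of 188253 and 131636 normalized counts, Grn 111762 and 56106.5, and Man2b1 86159 and 35142. Laptm5, next in control LPS, went the other way with 67802 and 81118. Psap alone did not pass the limma test (adjusted p = 0.333), nor did Laptm5 (adjusted p = 0.580). The 13 pump genes took 0.181%, 0.184% and 0.205% in cKO LPS, 0.183%, 0.216% and 0.200% in control LPS and 0.166%, 0.158% and 0.175% in control saline, again without overlap between either LPS group and saline. The summed neutrophil markers, as a share, were 0.0300% to 0.0530% in cKO LPS, 0.0330% to 0.241% in control LPS and 0.00213% to 0.00468% in control saline, and their part in the lysosomal shares was not tested. Within the 41, not every role was free of overlap. The hydrolases took 0.449% in control LPS library 3, against 0.481% in saline library 2, and the membrane proteins took 0.486% in control LPS library 1, against 0.546% in saline library 3. The further lysosomal genes described below took 2.17% to 2.30% in cKO LPS, 2.12% to 2.26% in control LPS and 1.81% to 2.39% in control saline, with saline library 3 above every LPS library.

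**Figure D3:**
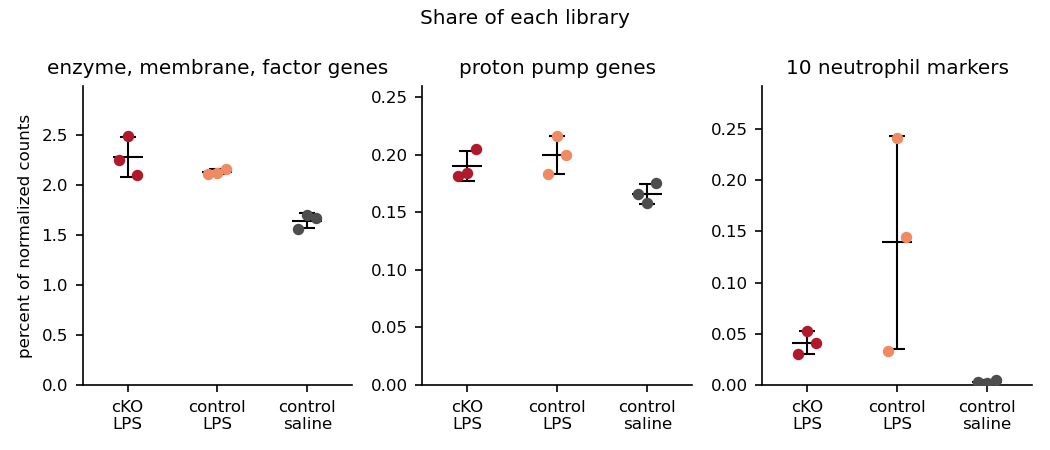
Percent of each library's normalized counts (y axis) taken by the 28 enzyme, membrane and factor genes, by the 13 proton pump genes and by 10 neutrophil markers, by group (x axis). Points are libraries, bars are means and whiskers ± SD (n = 3). Both lysosomal shares are higher in both LPS groups than in saline, and the neutrophil share ranges from 0.0330% to 0.241% within control LPS.

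Between cKO LPS and control LPS, none of the lysosomal genes was called. With limma, 0 of 41 genes and 0% of all tested genes had adjusted p under 0.05 in either direction, and the lowest adjusted p among the 41 was 0.9999. At unadjusted p under 0.05, 1 of 41 was higher (1.01% of all genes) and 1 lower (0.579%). In the authors' deposited table of this comparison 0 of 41 were called, against 0.00616% of its genes higher and 0.0185% lower. DESeq2 called 0 of the 41 and 4 genes in all, and edgeR called 0 and 0. The 10 neutrophil markers had a median log2 fold change of -1.23 in this comparison with 0 passing, and their part in the lysosomal values was not tested. The median log2 fold change over the 41 was 0.00, and 39 of 41 lay within ±0.25. For 39 genes the 95% interval of the difference lay within a 2-fold change in either direction, and for 29 within a 1.5-fold change, so larger differences of those genes were outside the intervals. Such an interval leaves smaller differences possible. For Glb1 it ran from -0.38 to 0.33 on the log2 scale, for Lamp1 from -0.24 to 0.61, for Grn from -0.48 to 0.53 and for Tfeb from -0.41 to 0.27.

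**Figure D4:**
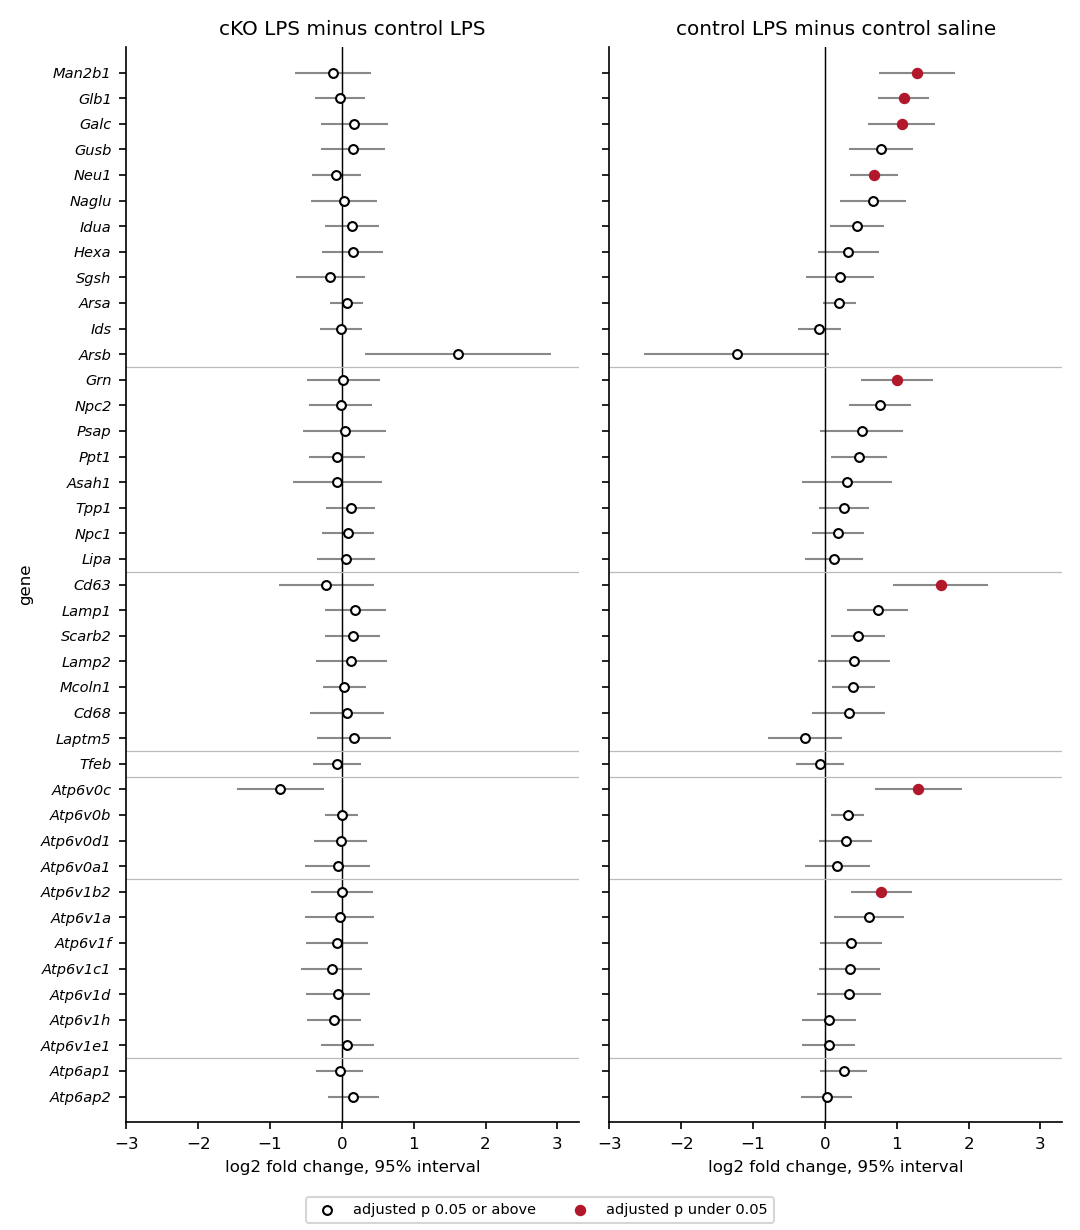
Log2 fold change (x axis) of each of the 41 genes (y axis) for cKO LPS minus control LPS on the left and control LPS minus control saline on the right, with 95% intervals from limma; filled points have adjusted p under 0.05. On the left 39 of 41 points lie within ±0.25 and none is filled, and on the right 8 are filled, all above 0.

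The 2 genes outside that range were Atp6v0c and Arsb. For Atp6v0c, cKO LPS was lower than control LPS in every library (0.553-fold, log2 -0.86 ± 0.27 SE, unadjusted p = 0.0105, adjusted p = 0.9999 with limma). It was the only one of the 41 with all cKO LPS libraries below all control LPS libraries, as 2.32% of all genes were. Reads of Atp6v0c can be shared with a near-identical copy, so its value is uncertain. The pseudogene Atp6v0c-ps2 had 1806, 2073 and 2561 normalized counts in cKO LPS, 1037, 1533 and 2607 in control LPS and 1474, 1501 and 1652 in control saline. In control LPS the library with the lowest gene value, library 3, had the highest pseudogene value. Counted together with its 2 named pseudogenes, an alternative chosen after seeing the data, Atp6v0c had 4077, 4711 and 5462 in cKO LPS, 6076, 8417 and 5572 in control LPS and 3312, 3665 and 3392 in control saline. On that sum the difference of cKO LPS from control LPS was -0.48 ± 0.17 SE on the log2 scale (adjusted p = 0.9999), and that of control LPS from control saline was 0.93 ± 0.17 SE (adjusted p = 0.0160). No source used here states how the authors' counting treated reads that match both.

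Arsb (chr13:93771679-93943016) had 61190, 68348 and 39673 normalized counts in cKO LPS, 30194, 10474 and 18268 in control LPS and 60347, 75188 and 16409 in control saline. All cKO LPS libraries lay above all control LPS libraries, as for 2.70% of all genes, and the saline libraries reached into the range of both. The difference of cKO LPS from control LPS was 3.06-fold (log2 1.61 ± 0.57 SE, unadjusted p = 0.0198, adjusted p = 0.9999 with limma). Among the 41 genes Arsb had the largest coefficient of variation, which was 60.4% within saline and 50.6% within control LPS. Its log2 difference of control LPS from control saline, -1.23 with all libraries, moved with single libraries. With limma it was -1.91 without saline library 3 (adjusted p = 0.0584), -0.97 without saline library 1 (adjusted p = 0.550), -0.81 without saline library 2 (adjusted p = 0.533) and -0.84 without control LPS library 2 (adjusted p = 0.651).

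**Figure D5:**
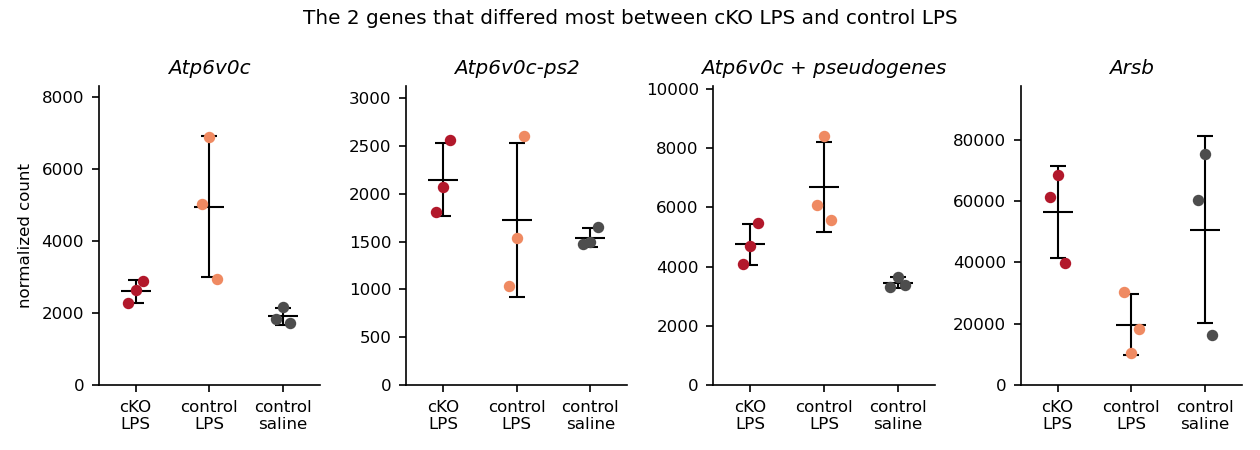
Normalized counts (y axis) by group (x axis) of Atp6v0c, its pseudogene Atp6v0c-ps2, the gene summed with both named pseudogenes, and Arsb. Points are libraries, bars are means and whiskers ± SD (n = 3). Atp6v0c lies at 2262 to 2892 in cKO LPS and 2951 to 6870 in control LPS. The sum lies at 4077 to 5462 in cKO LPS and 5572 to 8417 in control LPS, and Arsb spans 16409 to 75188 within saline.

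Set against control saline, cKO LPS microglia had 9 of the 41 genes higher (5.41% of all genes) and 0 lower (1.41% of all genes), with a median log2 fold change of 0.40, whereas the median over all genes was -0.01. At unadjusted p under 0.05, 0 of 41 were lower as well (7.67% of all genes). In 23 of the 41 all cKO LPS libraries lay above all control saline libraries, against 17.9% of all genes, and in 0 all lay below, against 13.8%. This comparison uses the same saline libraries as that of control LPS, so the values are only given side by side. The log2 fold change of Glb1 over saline was 1.07 in cKO LPS and 1.10 in control LPS, and that of Galc was 1.24 in cKO LPS and 1.07 in control LPS. Man2b1 had 1.15 in cKO LPS and 1.28 in control LPS, Cd63 1.40 in cKO LPS and 1.61 in control LPS, and Grn 1.03 in cKO LPS and 1.00 in control LPS. Atp6v1b2 had 0.79 in cKO LPS and 0.78 in control LPS, and Neu1 had 0.61 in cKO LPS and 0.69 in control LPS. Each of these 7 genes was called in both comparisons. Lamp1 was called in cKO LPS with 0.92 (adjusted p = 0.0217), against 0.74 in control LPS (adjusted p = 0.0570). Gusb was likewise called with 0.95 (adjusted p = 0.0237), against 0.79 (adjusted p = 0.0531). Atp6v0c had 0.44 in cKO LPS (adjusted p = 0.365), against 1.30 in control LPS. The direct comparison of cKO LPS with control LPS called none of these genes, so no difference between the groups is shown for them.

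Of the roles, the hydrolases had 5 of 12 higher in cKO LPS than in saline, the lipid and protein genes 1 of 8, the membrane proteins 2 of 7 and the pump 1 of 13. Leaving out a library lowered the count of 9 to 2 without any 1 of the 3 cKO LPS libraries or saline library 1, to 3 without saline library 2 and to 5 without saline library 3. It was 12 without control LPS library 1, which enters only through the shared estimate of spread. Over all tested genes, 1131 were called with all libraries. That number was 519, 588 or 490 without cKO LPS library 1, 2 or 3. Without saline library 1, 2 or 3 it was 639, 591 or 709, and without control LPS library 1 it was 1656. Glb1 and Galc were called in all 9 fits that left out 1 library. In the authors' deposited table of this comparison, 15 of the 41 were higher at adjusted p under 0.05, against 9.06% of its genes, and 0 were lower, against 3.55%.

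The 9 genes with TCACGTG in their promoter window are set beside the others by count. In control LPS over saline, 1 of the 9 was called, Glb1, with a median log2 fold change of 0.40, and 6 of the 27 genes with a window without these letters were called, with a median of 0.36. In cKO LPS over saline, 2 of the 9 were called, Glb1 and Lamp1, with a median of 0.43, and 6 of the 27 others, with a median of 0.40. Man2b1, Galc, Cd63 and Grn had no match in this window. For Man2b1 and Cd63 the only window lay inside the annotated gene span, so bases upstream of the span were not searched. The only windows of Ids, Laptm5, Atp6v0a1 and Atp6v1d, counted as without these letters, also lay inside the span. These are counts over few genes and no test was made of the difference.

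Beyond the 41, a further 60 genes of the lysosome were listed by function, of which 56 were in the table and 54 were tested. In control LPS over saline, 5 rose (9.26%, against 4.68% of all genes) and 1 fell (0.923% of all genes), and the median log2 fold change was 0.36. Acp5, which encodes the tartrate-resistant acid phosphatase of osteoclasts and macrophages, had the largest change: 528, 807 and 1884 normalized counts in cKO LPS, 293, 1363 and 1310 in control LPS and 34.6, 26.3 and 38.5 in control saline (log2 4.58 ± 0.62 SE for control LPS, adjusted p = 0.00483). Gm2a, the activator that presents a ganglioside to beta-hexosaminidase, rose by log2 1.30 (adjusted p = 0.0132), and the hydrolase gene Manba by 0.72 (adjusted p = 0.0402). Among membrane proteins the channel gene Tpcn2 rose by 1.06 (adjusted p = 0.0268) and the chloride transporter gene Clcn7 by 0.58 (adjusted p = 0.0372). Cd164, a sialomucin gene, had 7871, 7974 and 6463 normalized counts in cKO LPS, 9201, 6773 and 8659 in control LPS and 16374, 18708 and 28359 in control saline. It fell in control LPS against control saline (log2 -1.34 ± 0.22 SE, adjusted p = 0.00882). Of the 7 further pump subunits tested and the 10 genes of sorting and regulation, 0 were called in control LPS. In cKO LPS over saline 7 of the 54 rose (5.41% of all genes) and 1 fell (1.41% of all genes). Of these 7, 2, Gnptab with 0.61 and Fuca1 with 0.63, did not pass in control LPS over saline. Between cKO LPS and control LPS 0 of 54 were called.

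Within groups, the median coefficient of variation of the 41 genes was 13.1% in cKO LPS, 18.4% in control LPS and 12.0% in control saline, against 15.8%, 20.2% and 20.5% over all tested genes in these groups. In saline the lowest values of the 41 were most often in library 1, for 22 genes, and the highest in library 3, for 24 genes. The shares over all tested genes are not given here, and saline library 3 had the fewest recovered reads of all libraries, 10845937.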

How the data were processed

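The authors deposited a normalized signal, gene counts divided by a size factor per library, for 9 microglia libraries made with a stranded polyA kit, per the labels' protocols. Build mm10 and the tools STAR, featureCounts, RSEM, DESeq2, edgeR 3.30.3, Trimmomatic, FastQC and MultiQC 1.12 are named per the submitters' processing notes, without their roles or the use of strand. From the authors there are also deposited tables of log2 fold changes, standard errors, Wald statistics as a score, and p-values for the 3 comparisons. Every deposited value was a whole number of reads within 0.01 read (100% of values), so reads were recovered for alternatives with edgeR 4.0.16 and DESeq2 1.42.0.

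Genes were tested by limma 3.58.1 with its trend option in R 4.3.3, on log2(value + 1), for genes with a mean of at least 10, in a fit over 9 libraries with 6 residual degrees of freedom, with Benjamini-Hochberg adjustment over 16575 genes and a threshold of 0.05. Fold changes are on this scale. Scripts were tested on simulated data. No replicate pair agreed within sampling noise (chi-square per degree of freedom 35.2 to 196). Values are printed per library for genes called, the extremes of each comparison and a panel of 11 genes; up to 4 called genes per pathway list are named. The members and lists were chosen with earlier results of these data known. Gene positions, 1-based, and promoters come from RefSeq GRCm38.p6, and exon lengths from GENCODE M21. A window match is a description of letters, not a binding site.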

Additional observations from a re-analysis of the deposited data

How the results depend on the processing

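For control LPS against control saline, the 8 lysosomal genes and 929 genes in all became 1 and 417 with only the 6 libraries compared, 24 and 2789 with array weights, and 14 and 1777 with DESeq2; edgeR gave 7 and 828. With array weights 1 of the 24, Arsb, was lower. Leaving out 1 library gave 2 to 15 and 374 to 1826. For cKO LPS against control saline, the 9 and 1131 became 21 and 3182 with array weights and 16 and 2100 with DESeq2, and 2 to 12 and 490 to 1656 without 1 library. For cKO LPS against control LPS, the 0 lysosomal genes stayed at 0 in every alternative, and the 0 genes in all became 1 with only the 6 libraries, 4 with DESeq2 and 0 to 1 without 1 library. Quantile normalization moved the median log2 fold change of all genes in control LPS over saline to -0.10 (0.02 otherwise) and the split of calls to 568 higher and 243 lower (776 and 153 otherwise); the lysosomal median lay 0.34 above that of all genes (0.33 otherwise), with 34 of 41 genes above 0 (37 otherwise). With the replicate block the counts were 9 and 926, 9 and 1286, and 0 and 0. The labels do not say whether the numbers pair the samples, and the main fit used no pairing. Deviations of same-numbered libraries correlated at -0.07 to 0.47, and 8 of 9 libraries correlated best with their own number. What same-numbered libraries share was not tested. No value of a printed gene that was called changed sign. Of 144 pairs of a called gene printed by library and an alternative, the call was lost in 42 for control LPS and 37 for cKO LPS over saline; of 162 pairs of a gene not called, a call was gained in 8 for control LPS and 6 for cKO LPS. The causes were not tested. With 3 libraries per group, small differences could go undetected, and any difference inside an interval given remains possible.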
